A study of Mus musculus with 32 samples.

Results

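H2AK119ub, histone H2A carrying a single ubiquitin on a lysine of its tail, was compared between mouse myeloid progenitors given the CSF3R T618I receptor and control cells, over 5 of the 32 samples of the series. Both groups were HoxB8 cells, an immortalised bone-marrow line held as progenitors by a HoxB8 that needs estrogen, and both had been without estrogen for 48 h. Controls (n = 2 libraries) carried a non-targeting guide RNA and the empty pMICH vector, and the CSF3R libraries (n = 3) carried the same guide with pMICH-CSF3R-T618I. Samples were chosen by these titles alone. Used beside them were 3 libraries with an Asxl1 guide (sgB2) and empty vector, 2 with that guide and CSF3R T618I (called double), and the H3K27me3 and H3K4me1 libraries of the same cells. The labels name no separate cultures or clones, so every p-value measures the spread between these libraries, which may be technical.

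H2AK119ub is written by Polycomb repressive complex 1 (PRC1) and removed by the deubiquitinase Bap1 together with Asxl proteins. It marks the promoters of silent developmental genes, usually with H3K27me3, the product of Polycomb repressive complex 2 (PRC2), and in myeloid cells it also lies at regulators of other lineages. CSF3R is the receptor for G-CSF, which drives neutrophil production through JAK and STAT proteins. T618I makes it signal without its ligand and occurs in chronic neutrophilic leukaemia.

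The deposited lists give peak positions only, on mm10, with no height or read count, so sequencing depth is unknown and each value below is a presence, a width or a covered fraction. In such bulk samples fewer cells carrying the mark and less mark per cell cannot be told apart. H3K4me1, which marks enhancers and active promoters, was used to check the cell type. Of 13 granulocyte-monocyte progenitor markers 9 had H3K4me1 at their gene end in all 5 libraries and 0 were without it in every library. The 5 T cell and 3 hepatocyte markers had none, and 4 of 5 fibroblast markers and 3 of 5 B cell markers had none. Of 5 erythroid markers 2 had none and 1 had H3K4me1 in all 5 libraries. Their summed covered fraction was 0.03 to 0.035 in control and 0.046 to 0.245 in CSF3R libraries. H3K4me1 lay at mast cell markers in both groups (2 of 4 in all 5 libraries), with a summed covered fraction of 0.28 to 0.42 in control and 0.37 to 0.495 in CSF3R libraries. The Csf3r and Asxl1 gene ends had no H2AK119ub peak in any library, so neither the receptor nor the guide can be checked from this mark.

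The clearest switches were promoters that H2AK119ub covered in one group and left bare in the other. RefSeq (GRCm38.p6, the coordinates of mm10) lists 21262 promoter windows, 250 bases before to 50 after a start, for 17491 of the 21883 protein-coding genes used. Of these windows 39 (0.183%) lay wholly inside peaks in all 3 CSF3R libraries and outside them in both controls, and 7 (0.0329%) did the reverse. The directions differ in the number of libraries that must hold or lack a peak, so these counts are not directly comparable. The 39 belonged to 37 genes, among them Lef1 and Dll3 (Wnt and Notch pathway genes), Met (the receptor for hepatocyte growth factor), Acvr2b (an activin receptor), Begain and Prss34 (a mast cell and basophil protease). The 7 were Cacnb4, Cldn4, Cyp1b1, Hdgfl3, Nebl, Pdgfc and Sfmbt2. These genes were picked out after their values were seen. Lrrc8b, Cnn3 and Spsb4 are shown because their whole windows gained H2AK119ub and their gene ends also passed the test below. Prss34 is shown as a switched promoter with few CpG dinucleotides, Cldn4 and Cyp1b1 as promoters covered in control only, and Gata2 as one wholly covered in all 5 libraries. Capitals mark CpG, and each sequence runs 5′ to 3′ along its gene.
Lrrc8b: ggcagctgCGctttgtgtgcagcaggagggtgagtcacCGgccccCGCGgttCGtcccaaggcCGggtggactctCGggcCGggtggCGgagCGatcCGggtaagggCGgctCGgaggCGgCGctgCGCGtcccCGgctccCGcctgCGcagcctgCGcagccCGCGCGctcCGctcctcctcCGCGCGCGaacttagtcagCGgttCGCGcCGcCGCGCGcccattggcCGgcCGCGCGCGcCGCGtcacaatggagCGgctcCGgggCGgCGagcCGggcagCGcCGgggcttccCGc
Cnn3: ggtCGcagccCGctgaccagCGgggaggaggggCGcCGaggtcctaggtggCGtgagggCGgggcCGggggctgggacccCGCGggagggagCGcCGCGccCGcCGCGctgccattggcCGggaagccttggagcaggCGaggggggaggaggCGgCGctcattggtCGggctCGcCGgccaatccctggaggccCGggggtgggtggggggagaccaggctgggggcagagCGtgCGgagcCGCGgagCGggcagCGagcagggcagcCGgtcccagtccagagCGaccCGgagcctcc
Spsb4: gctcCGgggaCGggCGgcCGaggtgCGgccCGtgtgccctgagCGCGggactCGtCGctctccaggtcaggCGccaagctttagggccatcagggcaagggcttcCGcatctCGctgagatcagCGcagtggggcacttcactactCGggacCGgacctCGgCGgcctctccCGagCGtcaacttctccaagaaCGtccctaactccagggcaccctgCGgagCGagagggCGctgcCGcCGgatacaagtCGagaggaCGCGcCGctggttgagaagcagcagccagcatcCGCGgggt
Prss34: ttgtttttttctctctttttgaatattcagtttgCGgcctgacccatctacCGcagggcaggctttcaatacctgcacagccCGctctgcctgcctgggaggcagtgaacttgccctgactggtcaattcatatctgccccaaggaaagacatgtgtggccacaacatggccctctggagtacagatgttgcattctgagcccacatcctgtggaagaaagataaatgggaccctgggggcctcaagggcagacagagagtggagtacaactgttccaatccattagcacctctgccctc
Cldn4: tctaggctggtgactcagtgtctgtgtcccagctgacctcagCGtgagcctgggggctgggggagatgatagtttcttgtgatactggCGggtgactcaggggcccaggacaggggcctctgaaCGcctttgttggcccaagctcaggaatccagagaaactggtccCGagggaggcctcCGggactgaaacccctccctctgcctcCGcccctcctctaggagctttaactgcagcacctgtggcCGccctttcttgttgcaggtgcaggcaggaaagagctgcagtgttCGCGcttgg
Cyp1b1: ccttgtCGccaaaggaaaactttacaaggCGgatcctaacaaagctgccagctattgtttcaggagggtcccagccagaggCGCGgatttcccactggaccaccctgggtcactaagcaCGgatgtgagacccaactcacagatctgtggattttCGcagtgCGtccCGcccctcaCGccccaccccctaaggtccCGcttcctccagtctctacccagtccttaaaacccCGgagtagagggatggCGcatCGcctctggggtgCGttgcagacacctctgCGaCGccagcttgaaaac
Gata2: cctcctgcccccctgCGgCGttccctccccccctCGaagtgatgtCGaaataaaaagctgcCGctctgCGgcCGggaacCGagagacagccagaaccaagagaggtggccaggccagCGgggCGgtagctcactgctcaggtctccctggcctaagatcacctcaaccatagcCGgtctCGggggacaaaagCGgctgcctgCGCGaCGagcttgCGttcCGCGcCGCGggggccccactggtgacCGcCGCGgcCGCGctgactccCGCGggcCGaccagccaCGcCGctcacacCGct

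The windows lie at chr5:105415525-105415824, plus strand (Lrrc8b, a subunit of volume-regulated anion channels), chr3:121426291-121426590, plus strand (Cnn3, the actin-binding calponin 3) and chr9:97018306-97018605, minus strand (Spsb4, a substrate receptor of a ubiquitin ligase). The others lie at chr17:25298144-25298443, plus strand (Prss34), chr5:134946885-134947184, minus strand (Cldn4, a tight-junction claudin), chr17:79715012-79715311, minus strand (Cyp1b1, a cytochrome P450) and chr6:88193641-88193940, plus strand (Gata2, a transcription factor of stem and mast cells). The Lrrc8b window holds 51 CpG in its 300 bases, Cnn3 33, Spsb4 32, Gata2 32, Cyp1b1 16, Cldn4 9 and Prss34 3. Over all 21262 windows the median was 13. Searching for CG (read the same on both strands), the median was 25 in the 39 windows covered only with CSF3R and 23 in the 727 covered whole in all 5 libraries. The 7 covered only in control held 40, 9, 16, 36, 32, 8 and 9 CpG in the order named.

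With any overlap in place of whole coverage, 185 windows (0.87%) had a peak in all 3 CSF3R libraries and in neither control, and 20 (0.0941%) had the reverse. These counts are not directly comparable either, for the same reason. Split into 3 equal classes by CpG, the gains numbered 16 in the class with the fewest, 70 in the middle and 99 in the class with the most, and the losses 2, 11 and 7. In the class with the most CpG, a peak lay on 13% and 15.5% of windows in the controls and on 15.4%, 21.3% and 22.4% in the CSF3R libraries. CSF3R replicate 1 was thus within the control range there, and the other 2 were above it.

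That library also had the shortest list of the 5. The controls had 17116 and 17030 peaks covering 21.2 and 19.9 Mb. CSF3R replicates 1, 2 and 3 had 15788, 23338 and 25860 peaks covering 18.8, 28.7 and 28.2 Mb, so the first lay below both controls and the other 2 above. Covered length averaged 20.6 ± 0.876 Mb (SD, n = 2) in control and 25.2 ± 5.57 Mb (n = 3) with CSF3R, a difference of 0.27 in mean log2 length (exact permutation test, 2-sided, p = 0.4; the smallest p that 10 arrangements allow is 0.1). Peak number differed by 0.31 in mean log2 (exact p = 0.4). Mean peak width was 1238 and 1171 bp in control and 1191, 1228 and 1091 bp with CSF3R, with overlapping groups (exact p = 0.7). Both groups placed a similar share of length within 5 kb of a gene start (53.6 ± 0.63% and 52.8 ± 2.68%, exact p = 0.7) and inside IgG peaks (4.42 ± 0.288% and 4.46 ± 0.298%, exact p = 0.8).

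The share of H2AK119ub length that also lay in H3K27me3 peaks of the same replicate number had separated groups. It was 35.5% and 41.8% in the controls and 48.5%, 44.8% and 46.0% in the CSF3R libraries (38.6 ± 4.42% against 46.4 ± 1.85%, exact p = 0.1, the smallest possible). Every CSF3R library was above both controls, including replicate 1 with its short list. The share depends on the H3K27me3 lists as well, and H3K27me3 rose with CSF3R at 2.85% of 3713 tested gene ends and fell at 0%. A change in either mark cannot be told apart here. The same share varied widely among the 3 Asxl1 guide libraries, at 24.1%, 65.0% and 38.1%. The H3K4me1 share was also separated, though narrowly, at 4.09% and 4.67% in the controls and 4.83%, 6.03% and 6.73% with CSF3R (4.38 ± 0.407% and 5.86 ± 0.962%, exact p = 0.2). Of 18 library measures tested, none could pass a correction at these sample numbers.

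**Figure D1:**
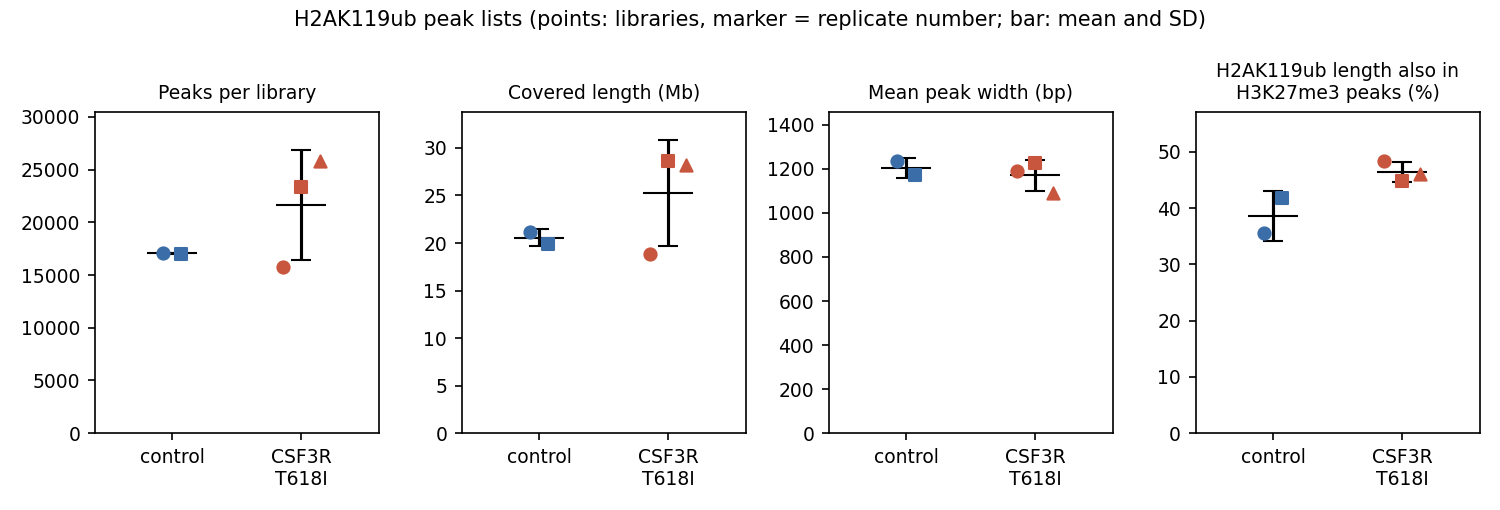
Each point is 1 H2AK119ub library (marker shape gives the replicate number) and the bars give mean and SD for peak number, covered length in Mb, mean peak width in bp and the percentage of covered length also in H3K27me3 peaks. CSF3R replicate 1 lies below both controls in number and length (15788 peaks, 18.8 Mb), while the H3K27me3 share of the 3 CSF3R libraries (44.8% to 48.5%) lies above both controls.

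Merging the 5 lists gave 38437 regions. Of these 7011 (18.2%) held a peak in all 5 libraries, with a median merged width of 2700 bp, and 18300 were seen in 1 library. A peak in all 3 CSF3R libraries and in neither control was found in 1049 regions (median 950 bp), and one in both controls and in no CSF3R library in 414 (median 500 bp). These classes differ in the number of libraries that must hold or lack a peak, so their sizes are not directly comparable. Of the 1049 regions, 43.0% lay within 5 kb of a gene start, against 39.4% of all regions and 58.8% of those in all 5 libraries. H3K27me3 touched 14.8% of the 1049 in control and 31.3% with CSF3R. Over all regions those shares were 22.4% and 35.1%. Of the same 1049, 53.9% had a peak in both double libraries and 71.5% in no Asxl1 guide library, against 32.6% and 65.0% of all regions.

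Regions held by all 5 libraries differed little in width. The median log2 ratio of covered length, CSF3R over control, was 0.13, and 60.6% of the 7011 were longer. In 1156 (16.5%) every CSF3R library covered more than both controls, and in 541 (7.72%) every one covered less. These shared regions held 16.3 ± 0.603 Mb in control and 18.05 ± 2.30 Mb with CSF3R, and the remainder 4.22 ± 0.273 and 7.19 ± 3.36 Mb (exact p = 0.4 for each). Libraries of 1 group overlapped about as much as libraries of different groups: the Jaccard index of covered bases was 0.49 between the controls, 0.44 to 0.49 among CSF3R libraries and 0.42 to 0.47 across groups.

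Broad domains showed where the mark spread or retreated. Regions joined across gaps of up to 3 kb formed 452 domains of 20 kb or more. In 104 of them (23%) every CSF3R library covered more than both controls, and in 38 (8.41%) every one covered less, with a median difference of 1.07 kb. The domains named here are those with large differences and were picked after their values were seen, so they carry no test.

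The largest difference lay in Wdr25 (chr12:108901351-109011850). Controls covered 20.8 and 26.8 kb of it and CSF3R libraries 67.2, 70.0 and 72.4 kb (23.8 ± 4.3 against 69.9 ± 2.6 kb). The adjoining domain over Wdr25 and Begain went from 4.3 and 4.4 kb to 17.2, 23.3 and 27.2 kb. Both lie near the imprinted Dlk1-Meg3 genes. A domain over Shank2, Cttn and Ppfia1 had 64.3 and 60.6 kb in control and 86.2, 90.3 and 85.4 kb with CSF3R. One over Muc4, Muc20, Smbd1 and Rubcn had 22.9 and 14.9 kb in control and 34.4, 48.1 and 41.0 kb with CSF3R. At the Gata2 domain (chr6:88181851-88284600), controls covered 55.8 and 54.8 kb and CSF3R libraries 62.7, 74.5 and 74.2 kb. The Gata2 promoter itself was covered in every library, so the added length lay to its sides.

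Retreat was seen at Samd4 and Rara. Samd4, which encodes an RNA-binding repressor of translation, had 36.0 and 34.2 kb in control and 13.1, 18.3 and 13.8 kb with CSF3R (35.1 ± 1.2 against 15.1 ± 2.8 kb). The Rara domain (chr11:98917501-98986400, also over Cdc6 and Gjd3) had 49.95 and 46.6 kb in control and 25.05, 36.7 and 29.2 kb with CSF3R. Rara encodes the retinoic acid receptor that promotes granulocyte differentiation. The 3′ part of Foxo1 had 19.0 and 12.8 kb in control and 3.2, 8.4 and 2.4 kb with CSF3R, and Rin2 had 18.9 and 14.0 kb against 3.4, 6.4 and 5.0 kb. In each of these 4 the groups did not overlap.

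**Figure D2:**
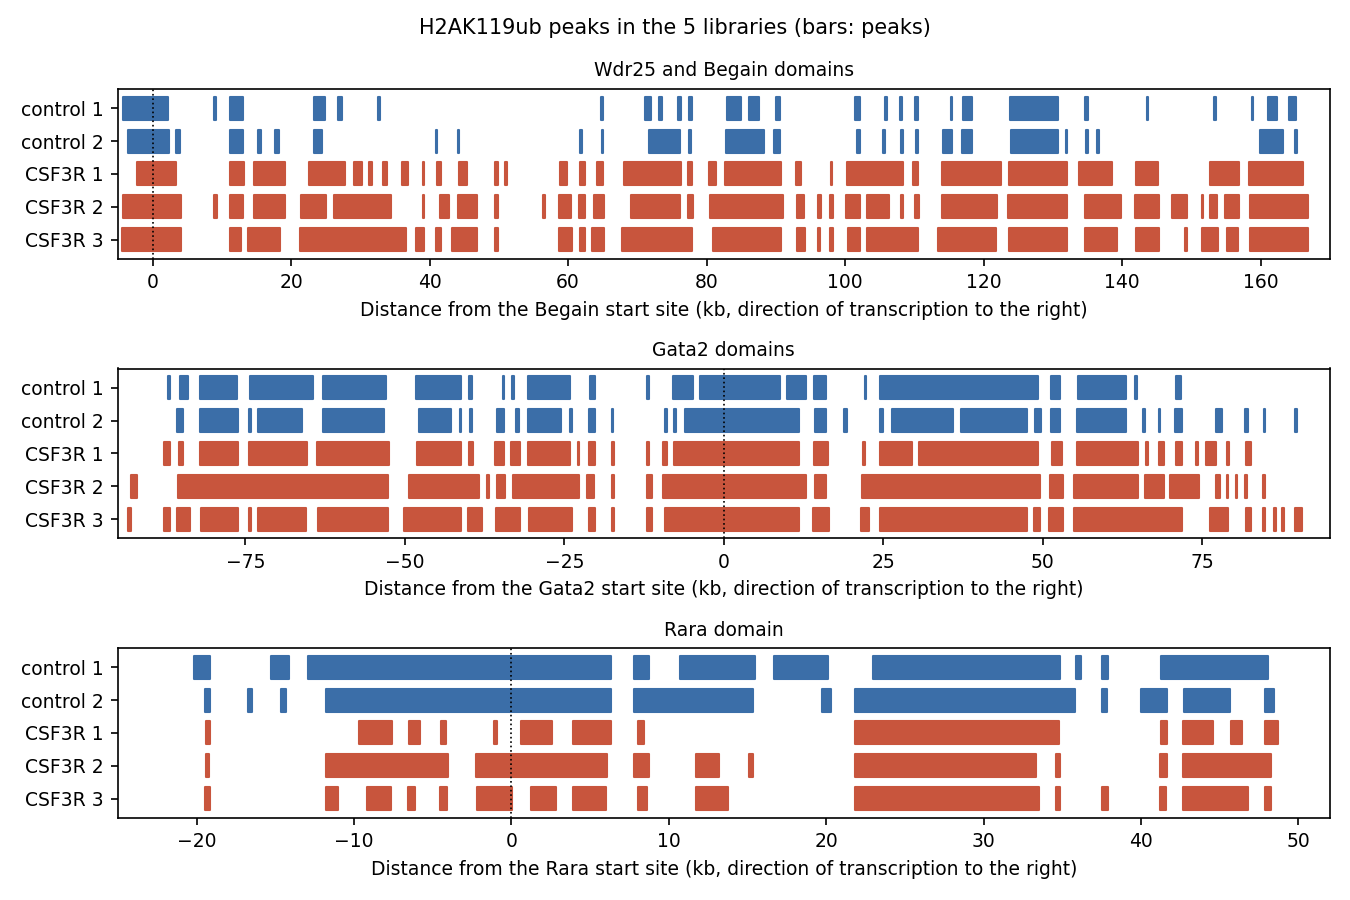
H2AK119ub peaks (bars) in the 2 control libraries (blue) and 3 CSF3R libraries (red), by distance in kb from the first listed start of Begain, Gata2 and Rara, with transcription to the right. Peaks over Wdr25 and Begain are longer in all 3 CSF3R libraries, the Gata2 start is covered in all 5, and the peaks around the Rara start are longer in the controls.

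Genes were compared by the fraction of a 10 kb window, centred on the better-covered end of each gene, that lay in peaks. Of 21883 protein-coding genes, 3230 reached a fraction of 0.2 in at least 2 of the 10 H2AK119ub libraries and were tested with limma, with Benjamini-Hochberg adjustment. With CSF3R 8 gene ends rose (0.248% of those tested) and 0 fell. A further setting cut every library to equal covered length, that of the shortest of the 10 lists, by keeping its widest peaks. The counts were then 30 and 17. Longer lists lose wider peaks in that cut, so a peak can drop out by its width alone. In the full lists 463 ends had an unadjusted p under 0.05, of which 395 were higher and 68 lower. The median difference over all tested ends was 0.04, and 66.8% were above 0. In 722 (22.4%) all CSF3R libraries lay above both controls, and in 204 (6.32%) all lay below.

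Without CSF3R replicate 1 the same fit called 99 gene ends higher, and it called 0 or 1 without either control or either other CSF3R library. It called 4 without guide replicate 2 or 3 and 35 without either double library. No call was kept in all 5 of the fits that leave out 1 control or CSF3R library. Selenoo was kept in 8 of the 10 fits that leave out 1 library each, Etv3l and Lrrc8b in 6, Hif1an in 5, Spsb4 in 4, and Cnn3 and Ptprg in 3.

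Selenoo, a mitochondrial enzyme that transfers AMP to proteins, had a window at its 3′ end (chr15:89095340-89105339). Its covered fraction was 0.085 and 0.10 in control and 0.58, 0.564 and 0.65 with CSF3R (0.092 ± 0.011 against 0.598 ± 0.046, difference 0.51 ± 0.045 SE, limma adjusted p = 0.0042). Etv3l, an ETS family transcription factor, had 0.10 and 0.175 at its 5′ end in control and 0.656, 0.749 and 0.815 with CSF3R (limma adjusted p = 0.010). H3K27me3 covered 0.015 ± 0.021 of that window in control and 0.283 ± 0.108 with CSF3R, though its own adjusted p was 0.086.

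Lrrc8b, whose promoter sequence is printed above, had 0.205 and 0.15 in control and 0.66, 0.68 and 0.66 with CSF3R (limma adjusted p = 0.010). Cnn3 had 0.02 and 0 in control and 0.44, 0.36 and 0.355 with CSF3R (limma adjusted p = 0.049). Spsb4 had 0.11 and 0.13 in control and 0.474, 0.44 and 0.52 with CSF3R (limma adjusted p = 0.019). In all 3 gene-end windows the CSF3R values were close together and far from the controls. That follows from how these genes were chosen and is no further evidence. H3K27me3 was absent in control at all 3. With CSF3R it covered 0.183 of the Lrrc8b window and 0.238 of the Cnn3 window (adjusted p = 0.139 and 0.071) and none of the Spsb4 window.

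Hif1an, the asparagine hydroxylase that restrains hypoxia-inducible factors, had 0.412 and 0.155 at its 3′ end in control and 0.84, 0.85 and 0.79 with CSF3R (limma adjusted p = 0.019). H3K4me1 fell in that window, from 0.771 in control to 0.465 with CSF3R (limma adjusted p = 0.024), in a fit of 2328 gene ends that called 1.85% lower and 8.12% higher for H3K4me1. Ptprg, a receptor tyrosine phosphatase, had no peak in either control and 0.29, 0.365 and 0.29 with CSF3R (limma adjusted p = 0.047). The eighth call was 1700017B05Rik, which had no peak in either control and 0.518, 0.605 and 0.69 with CSF3R (limma adjusted p = 0.010).

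**Figure D3:**
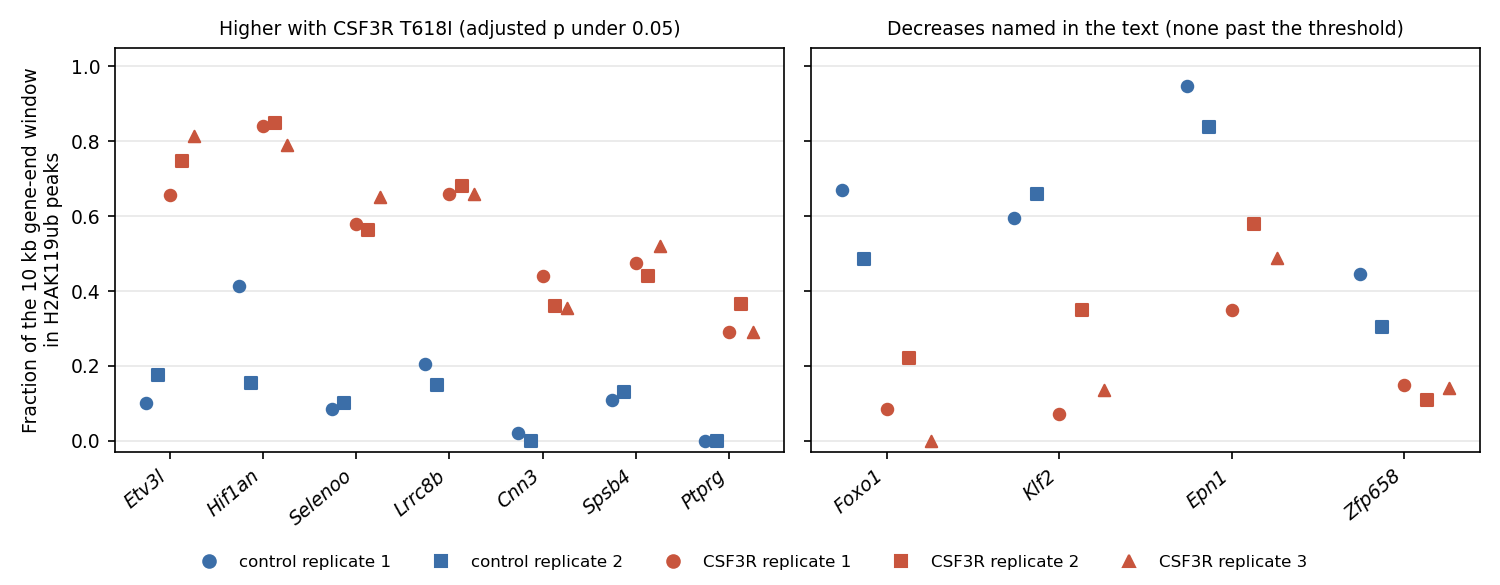
Fraction of the 10 kb gene-end window inside H2AK119ub peaks in each of the 5 libraries, for the 7 named gene ends that rose (left) and 4 of the decreases with the lowest p (right). In every gene shown the 3 CSF3R libraries (red) do not overlap the 2 controls (blue), and the decreases have adjusted p of 0.065 to 0.099.

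No decrease passed the threshold. Some of those with the lowest p are given here, among them regulators of blood cells. Foxo1, a transcription factor restrained by growth-factor signalling, had 0.669 and 0.485 at its 3′ end in control and 0.085, 0.22 and 0 with CSF3R (limma adjusted p = 0.065). Klf2, a factor of quiescent lymphoid and myeloid cells, had 0.595 and 0.66 in control and 0.07, 0.35 and 0.135 with CSF3R (limma adjusted p = 0.099). Epn1 and Zfp658 had the same adjusted p of 0.099, with control means of 0.892 and 0.375 and CSF3R means of 0.472 and 0.133. The Epn1 window lay at its 3′ end, and the window at its start was not covered in either group.

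The double and Asxl1 guide libraries are not part of either group mean here, though they entered the filter and the shared spread of the fit that made the calls. At all 8 called gene ends both double libraries were above every guide library. The share among all 3230 tested ends was 40.6%, and the reverse held in 2.66%. Double means were 0.530 at Etv3l, 0.852 at Hif1an, 0.538 at Lrrc8b, 0.408 at Cnn3, 0.417 at Spsb4 and 0.332 at Ptprg, beside CSF3R means of 0.740, 0.827, 0.667, 0.385, 0.478 and 0.315. At Etv3l (0.475 and 0.585) and Lrrc8b (0.585 and 0.49) both double libraries lay below all CSF3R libraries. Selenoo differed, with 0.075 ± 0.042 in double libraries against 0.598 ± 0.046 with CSF3R. Across all tested ends 336 (10.4%) were higher and 7 (0.217%) lower in double than in guide libraries (limma). The difference between the 2 effects of CSF3R, tested as an interaction, passed at 6 ends (0.186%) where it was more positive beside the Asxl1 guide and at 1 (0.031%), Selenoo, where it was less so.

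At 289 gene ends (1.32% of 21883) a peak was present in all 3 CSF3R libraries and in neither control, and at 43 (0.196%) the reverse held. As with the regions, the directions ask for different numbers of libraries, so the counts are not directly comparable. The covered fraction was small, with a median of 0.065 at the gains and 0.044 at the losses, against 0.205 in control at the 4050 gene ends marked in all 5 libraries. Gains included the stem cell factor Sox4 (no peak in control, 0.295, 0.225 and 0.33 with CSF3R, limma adjusted p = 0.065), the platelet integrin Itgb3 (0.08, 0.215 and 0.195), the carbonic anhydrase Car2, and the PRC1 genes Cbx6, Kdm2b, Bcor and Pcgf5. Of the 289, 226 (78.2%) had no peak in any guide library and 138 (47.8%) had one in both double libraries. Those shares were 42.3% and 57.3% of the 8639 gene ends with a peak in any of the 5 libraries. Losses on the lists used here were Dkk2 and Ifitm6.

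Gene lists were read by counting members whose 3 CSF3R libraries lay wholly above or below both controls, beside the 22.4% and 6.32% of all tested ends. No member of any list passed the adjusted threshold. Hox cluster genes, the textbook Polycomb targets, had 27 of 39 members tested. In 0 of the 27 all CSF3R libraries were higher and in 4 all were lower (Hoxa9, Hoxb6, Hoxc8 and Hoxd8), and the median difference was -0.06. Hoxa9 had 0.655 and 0.66 in control and 0.385, 0.64 and 0.49 with CSF3R (limma adjusted p = 0.390). Hoxc8 had 0.33 and 0.17 against 0, 0.065 and 0.07 (limma adjusted p = 0.278). The cells' own Hoxb8 gene on chromosome 11, as distinct from the HoxB8 that needs estrogen, had 0.476 ± 0.115 and 0.409 ± 0.14, with overlapping groups. H3K27me3 at the same 27 ends had a median difference of 0.21, opposite in sign to that of H2AK119ub. Without CSF3R replicate 1 the Hox median for H2AK119ub was 0.00, beside 0.06 for all tested ends. In that setting 3 of the 27 were wholly higher and 4 wholly lower, beside 41.1% and 7.8% of all tested ends.

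Developmental transcription factors had a similar lean. Of 115 tested, 8 were wholly higher and 17 wholly lower, with a median difference of -0.02. Evx1, a homeobox gene at the end of the Hoxa cluster, had 0.86 and 0.505 in control and 0.065, 0.37 and 0.255 with CSF3R, while H3K27me3 covered 0.931 and 0.955 of the window. The limma adjusted p at Evx1 was 0.127. Foxc2, a mesodermal factor, went the other way, with 0.07 and 0.10 against 0.34, 0.34 and 0.30 (limma adjusted p = 0.065). Wnt, Hedgehog, BMP and Notch genes were split, with 7 of 52 wholly higher and 7 wholly lower. At equal covered length 2 and 11 of 46 were, beside 10.4% and 10.2% of all ends tested in that setting. The member of this list with the lowest p was the Notch ligand Jag1. It had 0 and 0.025 in control and 0.21, 0.223 and 0.175 with CSF3R (limma adjusted p = 0.126).

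The list of JAK-STAT and cytokine genes holds members of the pathway downstream of CSF3R and also other receptors. With a median difference of 0.07, it had 0 of 15 tested members wholly lower and 8 wholly higher. These were the kinase Jak3, the transcription factors Stat5a and Stat5b, the receptors Flt3, Kit and Il2rb, the survival kinase Pim3 and the phosphatase Dusp6. Stat5a and Stat5b share a window between them, with 0.09 and 0.125 in control and 0.245, 0.285 and 0.26 with CSF3R for Stat5b (limma adjusted p = 0.127). H2AK119ub was absent there in all guide and double libraries. Pim3 had 0.445 and 0.65 against 0.88, 1 and 0.775 (limma adjusted p = 0.175). With every library cut to equal covered length 12 members were tested and 0 were wholly higher, when 10.4% of all ends were. That cut keeps only the widest peaks, and longer lists lose wider ones. It therefore cannot decide whether the count of 8 follows list length. Cish had no peak in any library. Socs3, whose product feeds back on the receptor, was not tested and had 0.162 ± 0.039 and 0.16 ± 0.121.

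Polycomb and Asxl/Bap1 complex genes had 5 of 8 tested members wholly higher and 0 lower (Auts2, Bmi1, Epop, Pcgf2 and Phf19). Of these, Bmi1 and Pcgf2 encode alternative PRC1 subunits, and Phf19 and Epop encode partners of PRC2. Pcgf2 had 0.035 and 0.05 in control and 0.17, 0.343 and 0.235 with CSF3R (limma adjusted p = 0.127). Under equal covered length 4 members were tested and 1 was wholly higher, beside 10.4% of all ends in that setting. The other 41 members of that list did not reach the filter.

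Myeloid transcription factors had 4 of 20 wholly higher (Gfi1, Irf5, Jun and Rxra) and 2 wholly lower (Klf2 and Rara). Rxra, the partner of retinoic acid receptors, had 0.41 and 0.255 in control and 0.505, 0.824 and 0.735 with CSF3R (limma adjusted p = 0.127). H3K27me3 at Rxra rose from 0.158 to 0.700 (limma adjusted p = 0.024, among 3713 tested ends of which 2.85% rose and 0% fell for that mark). Rara had 0.88 and 0.72 in control and 0.28, 0.69 and 0.275 with CSF3R (limma adjusted p = 0.218), and H3K4me1 there was 0.193 and 0.388. Irf8, which directs monocytes and restrains neutrophils, had overlapping values of 0.791 and 0.435 against 0.21, 0.596 and 0.66, while H3K27me3 rose from 0 to 0.433 (limma adjusted p = 0.021). Gata2 was near saturation, with 0.89 and 1 in control and 1 in all CSF3R libraries. Spi1 and Cebpe, regulators of granulocyte development, had no H2AK119ub in any library, and H3K4me1 covered 0.835 and 0.426 of their windows in control.

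Stem and progenitor regulators had 6 of 17 wholly higher (Bcl11a, Hmga2, Lyl1, Nr4a3, Runx1 and Sox4) and 2 wholly lower (Igf2bp2 and Nkx2-3), with a median difference of 0.04, equal to that of all ends. Meis1 had similar means in both groups at the gene end used, its 3′ end (0.187 and 0.197). The 10 kb window at its start had means of 0.405 in control and 0.330 with CSF3R. Cell cycle genes had 1 of 7 each way. Ccnd2, a G1 cyclin, had 0.46 and 0.485 against 0.665, 0.645 and 0.64 (limma adjusted p = 0.323), with H3K27me3 at 0.144 and 0.676 (limma adjusted p = 0.037). Cdkn2b, the p15 inhibitor, had 0.225 and 0.31 against 0.09, 0.11 and 0.065 (limma adjusted p = 0.126). Cdkn2a beside it had 0.501 ± 0.171 and 0.489 ± 0.028.

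Genes of other blood lineages were mixed. Lymphoid genes had 4 of 15 wholly higher (Lef1, Pax5, Satb1 and Tbx21) and 2 lower (Bach2 and Foxo1). Mast cell, basophil and eosinophil genes had 3 of 5 wholly higher, the proteases Prss34, Tpsb2 and Tpsg1, of which the last 2 have overlapping windows. At equal covered length 0 of 4 were wholly higher, beside 10.4% of all ends in that setting. Prss34 had 0.035 and 0.065 in control and 0.20, 0.30 and 0.41 with CSF3R (limma adjusted p = 0.467). H3K4me1 over that window was 0.04 in control and 0.288 with CSF3R, with an adjusted p of 0.096 for H3K4me1. Erythroid and megakaryocyte genes had 3 of 7 wholly higher (Car2, Itgb3 and Zfpm1), and 1 of 6 at equal covered length, beside the same 10.4%. Primary granule, late neutrophil, monocyte, germ-line and ribosomal protein lists had 1 to 3 tested members each, 1, 0, 1, 0 and 1 of them wholly higher and none wholly lower. The primary granule member was Prom1, with 0.125 ± 0.007 and 0.255 ± 0.018.

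**Figure D4:**
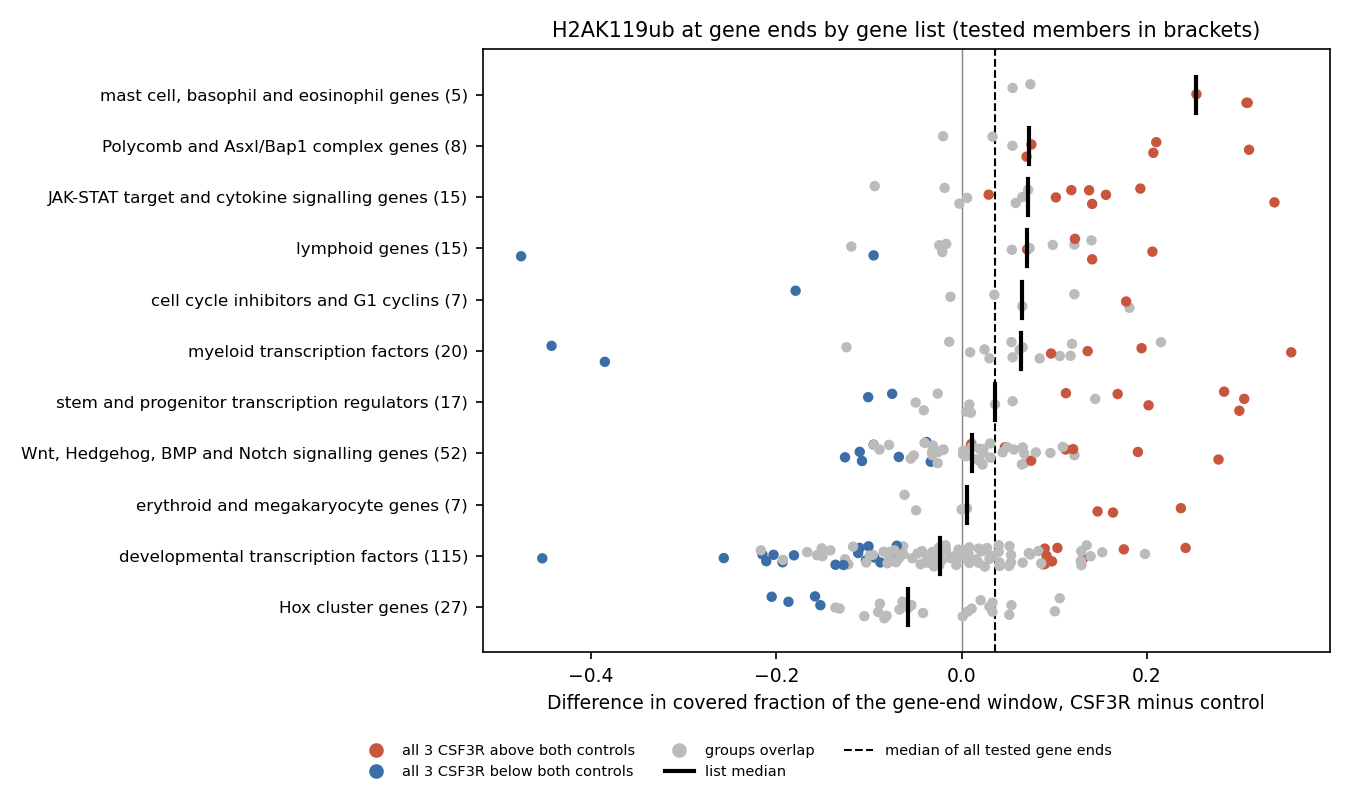
Each point is a tested gene end, placed by its difference in covered fraction (CSF3R mean minus control mean) in lists with at least 5 tested members. Short black bars are list medians, the dashed line is the median of all 3230 tested ends (0.04), and red or blue points have all CSF3R libraries above or below both controls. The Hox cluster median is -0.06 and no Hox point is red.

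Single regions gave more calls than gene ends. Of 29377 regions with a peak in at least 2 of the 10 libraries, 173 (0.589%) rose and 133 (0.453%) fell with CSF3R. They were short, with median widths of 600 and 450 bp against 1050 bp for all tested regions. They were mostly present or absent: 133 of the 173 had no peak in either control, and 106 of the 133 had none in any CSF3R library. Of those that rose 145 had no peak in any guide library, and a region absent from a whole group adds no spread to the test. Only 73 of the 173 and 95 of the 133 were kept in all 5 of the fits that leave out 1 control or CSF3R library. Of H2AK119ub regions higher with CSF3R there were 1281 without CSF3R replicate 1, 364 and 322 without replicates 2 and 3, 104 without control replicate 1, 97 and 100 without guide replicates 1 and 2, and 414 without either double library. Of H2AK119ub regions lower with CSF3R there were 278 and 359 without control replicates 1 and 2, and 220 without either double library. At equal covered length, where only the widest peaks are kept, 19 were higher and 55 lower. Within 5 kb of a gene start lay 76 of the 173 and 56 of the 133 (43.9% and 42.1%), against 40.3% of all tested regions.

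At the 173 regions, both double libraries were above every guide library in 88 (50.9%) and below in 0, against 32.7% and 1.36% of all tested regions. Those shares are not directly comparable, because 145 of the 173 (83.8%) had no peak in any guide library, against 51.6% of all tested regions. There a double library could not lie below, and any peak in both double libraries counted as above. At the 133 the double libraries were above in 7 (5.26%) and below in 5 (3.76%), and they had no peak in 106. Of those 133, 111 (83.5%) had no peak in any guide library, against 51.6% of all tested regions, and there a double library could not lie below. Over all tested regions limma called 4403 (15%) higher and 83 (0.283%) lower in double than in guide libraries, and an interaction at 2367 (8.06%) where the CSF3R difference was more positive beside the Asxl1 guide and at 108 (0.368%) where it was more negative. H3K27me3 covered more with CSF3R at 33 of the 173 (19.1%) and less at 2 (1.16%). At the 133 it covered more at 23 (17.3%) and less at 7 (5.26%). Over all tested regions those shares were 33.7% and 3.22%, at regions of a larger median width (1050 bp). H3K4me1 covered more at 24 of the 173 (13.9%) and less at 18 (10.4%). At the 133 it covered more at 21 (15.8%) and less at 2 (1.5%), and over all tested regions the shares were 7.66% and 4.86%.

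Among regions of at least 1 kb, the 6 largest increases all had CSF3R means of 0.866 or more. A 1450 bp region at chr7:35166951-35168400, 17695 bp from the nearest gene, Slc7a10, had no peak in control and 0.931, 0.966 and 1 with CSF3R (limma adjusted p = 0.003). H3K4me1 covered 0.86 ± 0.20 of it in control and 0.70 ± 0.40 with CSF3R, so the region carried H3K4me1 in both groups. An 1800 bp region inside Meis1 (chr11:19007551-19009350), the cofactor of HOX proteins in leukaemia, lies 9619 bp from its start. It had no peak in control and 0.972, 1 and 0.889 with CSF3R (limma adjusted p = 0.002). No guide or double library had a peak there. Regions in Taok3 (over its start), Lrrc8b (over its start) and Ppfia1, and one 45511 bp from Ywhaz, had CSF3R means of 0.920, 0.980, 0.866 and 0.875 and control means of 0, 0.065, 0 and 0. The Lrrc8b region touches an IgG peak. The Ywhaz region was kept in 4 of the 10 fits without 1 library, and the other 5 in all 10.

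The 6 largest decreases lay at Samd4, Mmp14, Tbc1d2, E2f2, Osbp2 and 9777 bp from Phb. The Samd4 region (chr14:47012801-47014350), inside the domain above, had 0.903 in both controls and no peak with CSF3R (limma adjusted p = 0.003). E2f2, a cell cycle transcription factor, had a 2800 bp region at chr4:136184451-136187250 with 0.857 and 0.946 in control and 0.089, 0.071 and 0 with CSF3R (limma adjusted p = 0.014). H3K4me1 covered 0 and 0.14 of the E2f2 region in control and 0.96, 0.96 and 0.98 with CSF3R. All 3 H2AK119ub libraries with CSF3R were thus low there, and all 3 H3K4me1 libraries with CSF3R, which are separate samples, were high. H2AK119ub averaged 0.708 in the guide libraries and 0.080 in the double libraries. Mmp14, a membrane metalloprotease, had 1 and 0.833 against 0, 0.167 and 0, with H3K4me1 at 0.23 ± 0.03 and 0.43 ± 0.15. The Osbp2 region had 0.694 and 1 against 0 in all CSF3R libraries, and H3K27me3 covered all of it in both groups. E2f2 was kept in 9 of the 10 fits, Tbc1d2 in 6 and the others in 10.

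**Figure D5:**
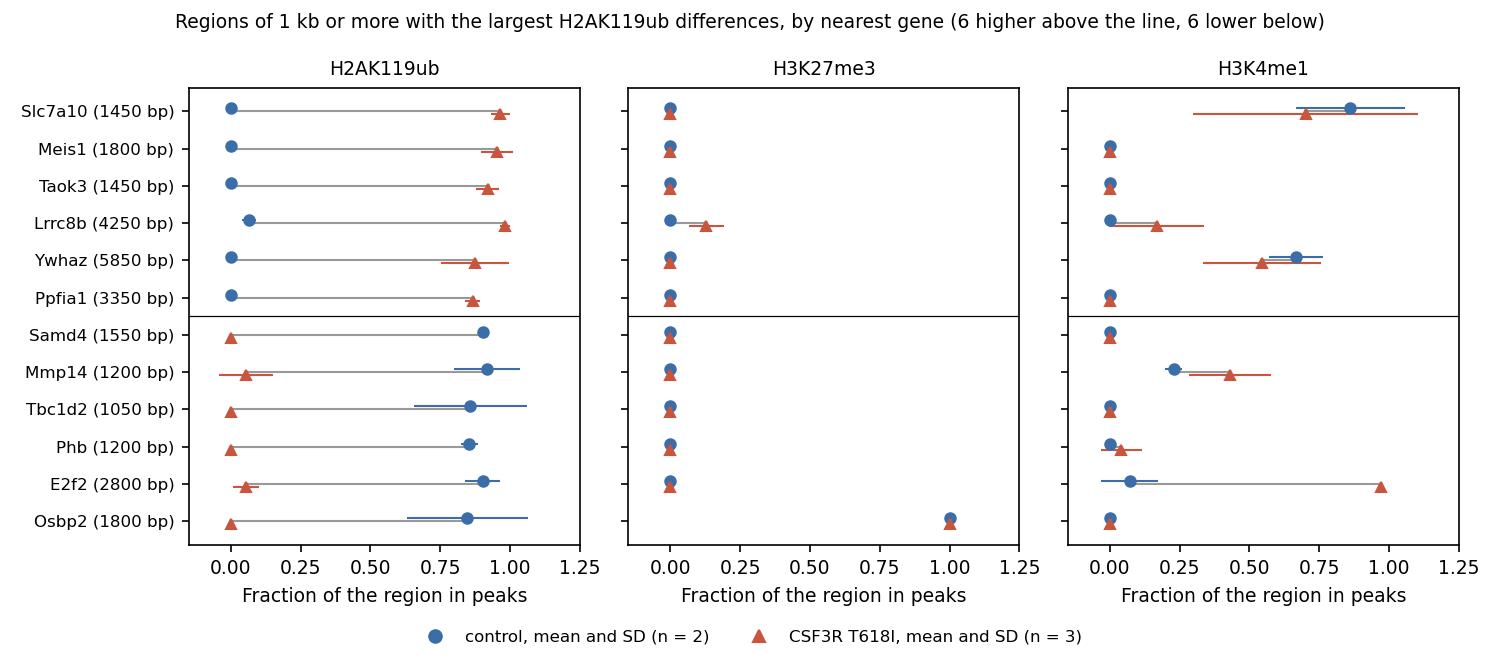
Fraction of each region inside H2AK119ub, H3K27me3 and H3K4me1 peaks, as mean and SD for control (circles, n = 2) and CSF3R (triangles, n = 3), at the 6 largest increases (above the line) and 6 largest decreases (below) of at least 1 kb. The E2f2 region goes from 0.902 to 0.054 for H2AK119ub and from 0.07 to 0.97 for H3K4me1.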

How the data were processed

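Marks were profiled by CUT&Tag with a commercial kit, per the labels' protocols: a transposase brought in by an antibody cuts the nearby DNA. The authors used Bowtie2 2.4.1 and deepTools 3.5 with mm10, per the submitters' processing notes; for the peak caller and its threshold, the step is not given in the sources used here. All deposited values are of another kind than read numbers, namely peak positions in bp, in steps of 50 bp, with depth unknown. A list of 2 merged IgG libraries served as background.

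Covered fractions were computed with Python 3.11.15, for the 10 kb window at the gene end with more coverage over all 30 libraries of 3 marks (3′ or unknown ends included) and for merged regions. limma 3.58.1 (R 4.3.3) fitted them over the 10 H2AK119ub libraries, 1 mean per group, 2-sided, adjusted p under 0.05; the fit was tested on simulated data. A member that passed the filter of 0.2 through the group where it is high had to differ, so list counts describe the tested members only. Members and the 16 lists were chosen with earlier results of these data known. Named genes were up to 12 of each direction past the threshold (the 6 lowest p where fewer passed; no Gm or Rik symbols), up to 3 per list by p, and 14 chosen genes; named regions were the 6 largest of each direction of at least 1 kb. Other settings are given at the end. A few members that the naming rule picks are not reported here.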

Additional observations from a re-analysis of the deposited data

Results flagged for a closer look

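The effect of CSF3R differed with the guide (limma interaction of CSF3R and Asxl1 guide) at 2 named gene ends. Of all 3230 tested, 6 (0.186%) had a more positive effect with the guide and 1 (0.031%) a less positive one. At Selenoo the fraction went from 0.092 to 0.598 with the non-targeting guide and from 0 to 0.075 with the Asxl1 guide (interaction adjusted p = 0.0397). At Itgb3 it went from 0 to 0.163 and from 0 to 0.797 (interaction adjusted p = 0.0178).

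The same interaction was past the threshold at 9 of the 12 named regions. Each was chosen for its difference between CSF3R and control, which is part of the interaction, so this is no independent evidence. The adjusted p was 0.00163 at Ppfia1, 0.00262 at Taok3, 0.00106 at Meis1 and 0.00379 near Slc7a10, where double means were 0.060, 0.190, 0 and 0.121. It was 0.00307 at Samd4, 0.00354 at Mmp14, 0.00838 at Tbc1d2, 0.00112 near Phb and 0.00626 at Osbp2, where guide means were 0.161, 0, 0, 0 and 0.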

How the results depend on the processing

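Covered length, peak number and mean width kept within the spread of the CSF3R libraries in every setting run (log2 differences without 1 library of 0.16 to 0.47, 0.17 to 0.52 and -0.08 to 0.01; median width gave -0.12, and removal of peaks under 500 bp 0.00). Counts of calls moved more. H2AK119ub gene ends higher with CSF3R and H2AK119ub gene ends lower with CSF3R, 8 and 0 as reported, were 88 and 18 with a 2 kb window, 23 and 8 over gene bodies, 164 and 20 for any overlap, 40 and 12 without the filter, and 30 and 17 at equal covered length. They were 4 and 0 without IgG-overlapping peaks, 6 and 2 with covered length as covariate, 0 and 0 in a fit of the 5 libraries, and 1 and 0 with the replicate block. Leaving out 1 library gave 0 to 99 higher (the most without CSF3R replicate 1, 0 without control replicate 2, 35 without either double library) and 0 to 4 lower. H2AK119ub regions higher with CSF3R and H2AK119ub regions lower with CSF3R, 173 and 133, were 113 and 101 with the covariate, 5 and 12 with the replicate block, 19 and 55 at equal length, 45 and 9 in at least 3 libraries, and 122 and 66 without short peaks. Without 1 library they ran from 97 to 1281 (without CSF3R replicate 1) and from 99 to 359 (without control replicate 2). For H2AK119ub gene ends, CSF3R by guide interaction calls, 7 as fitted, were 130 (2 kb), 21 (body), 577 (any overlap), 61 (no filter), 3 (equal length) and 0 for the start-site window, the covariate and the replicate block, and 0 to 88 without 1 library; these interaction settings and those of the lists were chosen after seeing the data. The cause of these changes was not tested.

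Replicate numbers 1 and 2 occur in both groups. Deviations of same-numbered libraries from their group had r = 0.06 and -0.02 over tested gene ends. With 2 controls the control deviations are mirror images of each other, so these values cannot decide whether the numbers pair the samples. With 2 controls and no read counts, precision is limited, and a longer list and a deeper library cannot be told apart.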
